A study of Mus musculus with 6 samples.

Results

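The GIMAP family GTPases were read in PC (peritoneal cavity) B1a cells on 6 one-colour Agilent mouse arrays. The family was taken as the 8 genes Gimap1, Gimap3, Gimap4, Gimap5, Gimap6, Gimap7, Gimap8 and Gimap9, by the gene name that the array files give to each non-control probe, and every such probe was read. It had 10 probes among 55681, of which 3 read Gimap4 and 1 read each other member, and its 8 genes were all among the 18254 genes that could be tested. The study examined B1a cells of p40-/-IL-2Rα-/- mice, a mouse model of primary biliary cholangitis, which is an autoimmune disease of the small bile ducts. B1a cells are self-renewing B cells of the body cavities, and here they were sorted as CD11b+CD5+ B cells.

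The knockout group was 3 samples of p40-/- CD25-/- mice, and the control group was 3 samples of p40-/- CD25+/- mice, called knockouts and controls below, with 1 array each. CD25 is the IL-2 receptor alpha chain, encoded by Il2ra, and p40 is the shared subunit of IL-12 and IL-23, encoded by Il12b. All animals of both groups thus lacked p40, the controls kept 1 allele of CD25, and no sample came from a mouse with intact p40. All mice were 7-week-old females on a C57Bl/6 background. The submitters give at least 3 mice for a sample but not how animals map to arrays, so p-values measure the spread between these samples, which may be pools or technical repeats. The deletions act in the whole animal, and a difference in B1a cells can therefore not be told apart from a difference in their surroundings.

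GIMAP proteins are small GTP-binding proteins of lymphocytes that share 1 type of GTPase domain, and their genes lie side by side in a single cluster. Several of them sit on membranes inside the cell, on lysosomes, mitochondria, the endoplasmic reticulum or lipid droplets, and they are best known for keeping resting T and B cells alive. Loss of Gimap5 in mice and rats leads to a shortage of lymphocytes and to autoimmune disease. Members have been tied to BCL2 family proteins, which set the threshold of cell death, and Gimap6 to the Atg8 proteins of autophagy.

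The probes lay on chromosome 6, in the order Gimap8, Gimap9, Gimap4, Gimap6, Gimap7, Gimap1, Gimap5 and Gimap3, within 103748 bases (chr6:48610775-48714522 in mm9, the build of the array files). Gimap6 and Gimap3 are read from the minus strand and the other members from the plus strand. Through the RefSeq accession of its probe, each of the 8 members had the same symbol in RefSeq. An older name of Gimap3 is also Gimap5, so the accession, and not the name, tells these apart. Whether a probe lies in an exon or a UTR was not determined here, since no annotation of that build was used.

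The sequences that bear on the largest differences are the single probe of Gimap5 and the 3 probes of Gimap4, which did not give the same difference. Each is a 60-base oligonucleotide, printed 5′ to 3′ from the array files. Capitals mark the longest stretch that the probe shares with a probe of any other gene on the array.
Gimap5, chr6:48703501-48703560, plus strand: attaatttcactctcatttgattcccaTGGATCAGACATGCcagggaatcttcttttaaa
Gimap4 probe 1, chr6:48640752-48640811, plus strand: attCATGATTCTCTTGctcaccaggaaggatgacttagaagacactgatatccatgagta
Gimap4 probe 2, chr6:48641312-48641371, plus strand: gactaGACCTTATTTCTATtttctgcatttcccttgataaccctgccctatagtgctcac
Gimap4 probe 3, chr6:48641817-48641876, plus strand: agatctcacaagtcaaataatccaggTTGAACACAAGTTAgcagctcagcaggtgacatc
The shared stretch was 14 bases in the Gimap5 probe, and 13, 14 and 14 bases in Gimap4 probes 1, 2 and 3. In none of these cases was the other probe one of another GIMAP gene.

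Every level below is the log2 of the processed spot signal minus the 75th percentile of its array, so that 0 is a spot at that percentile. The knockout arrays were dimmer before this scaling, with a 75th percentile between 66.5 and 162 intensity units, against 252 to 272 on the control arrays. Spots well above background made up 39.7% to 45.9% of a knockout array and 47.2% to 50.6% of a control array, and no spot was saturated. A single slide carried all 6 arrays, and a single scan read them. Il2ra, the deleted gene, stood at 1.62, 1.13 and 1.35 in the controls and at -0.31, -0.59 and 0.86 in the knockouts. Each knockout was below each control, yet the gene stayed detectable above background in all 6 samples. The log2 difference was -1.38 (limma adjusted p = 0.122). Il12b, deleted in both groups, differed by -0.02, and whether either probe lies in the deleted part of its gene is not known.

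All 10 GIMAP probes were well above background on all 6 arrays, so the filter on dim probes removed no member and each difference was measured on both sides. Intensities before scaling ran from 118 for Gimap7 on knockout 2 to 31565 for Gimap6 on control 3. The levels of different probes are not compared, since each probe binds with its own efficiency. In a bulk sample, fewer cells that express a gene and less RNA per cell cannot be told apart.

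None of the 8 members differed 2-fold between the genotypes with an unadjusted p of at most 0.05, the threshold of the study, where 3.53% of all genes did. None passed a limma adjusted p of 0.05, where 0.0383% of all genes did. The members' log2 differences, knockout minus control, ran from -0.38 for Gimap5 to 0.23 for Gimap4, with 3 members higher and 5 lower. The median was -0.08, beside -0.12 over all genes tested. It lay above 0 with quantile normalization (0.029, all genes -0.07) and with normexp plus quantile normalization. It was also above 0 with scaling on the median of detected probes, with the deposited log2 values and without knockout 2. With normexp alone it was -0.39 (all genes -0.10). The median absolute difference was 0.17, beside 0.30 over all genes. The 95% intervals of the 8 members together reached from -0.73 to 0.57, which is 1.66-fold lower to 1.48-fold higher, so no member's interval held a 2-fold change. That of Gimap5 did not hold 0 and the other 7 did. A member at an unadjusted limma p under 0.05 was found once, where 25.1% of all genes had such a p. In 2 of 8 members the groups did not overlap, where this held for 36.3% of all genes.

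**Figure D1:**
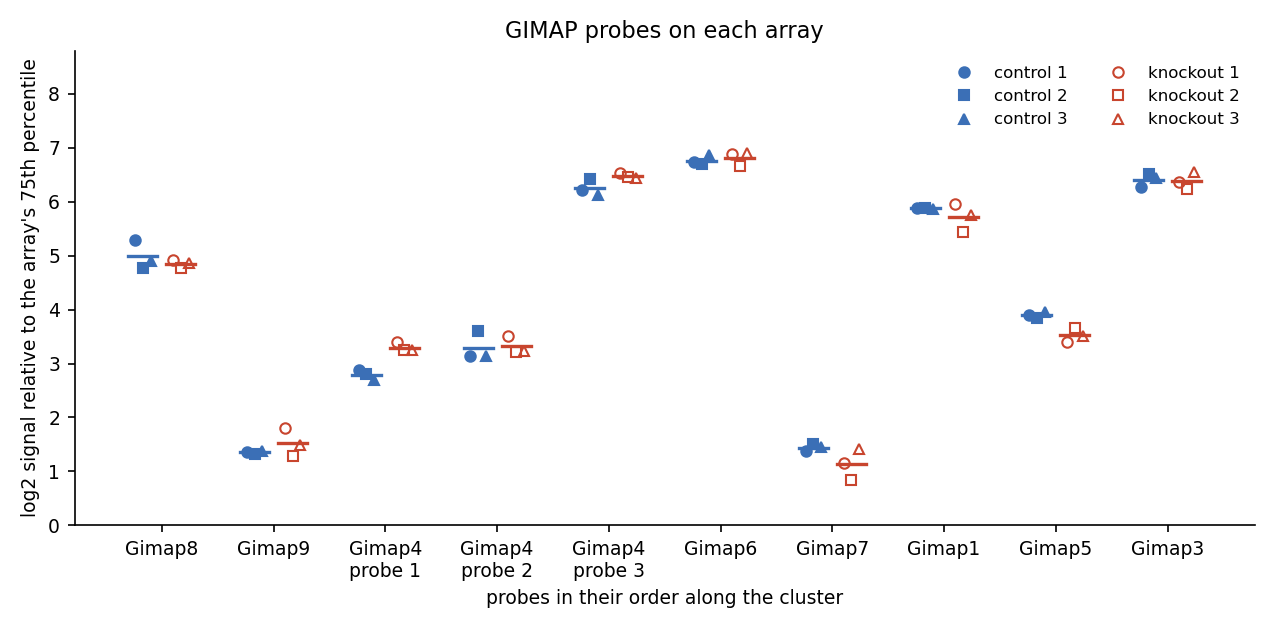
Level of each GIMAP probe on each array (y axis, log2 signal relative to the 75th percentile of the array), with the probes in their order on the chromosome (x axis). Filled blue symbols are control arrays, open red symbols are knockout arrays, the symbol shape gives the replicate number and bars are group means over 3 arrays. The groups overlap for 7 of the 10 probes, and they do not for Gimap5, Gimap4 probe 1 and Gimap4 probe 3.

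Gimap5, which supports the survival of resting lymphocytes and resides on lysosomal membranes, had the largest difference among the probes that represent their genes under the scaling used here. Gimap4 probe 1 differed more. With quantile normalization, with or without normexp, and with the deposited log2 values Gimap4 and Gimap9 differed more than Gimap5, as did Gimap4 with scaling on the median of detected probes and Gimap7 without knockout 1, without knockout 3, with the deposited log2 values and with quantile normalization alone. The level of Gimap5 was 3.90, 3.84 and 3.96 in the controls and 3.39, 3.65 and 3.52 in the knockouts. Every knockout array lay below every control array. The log2 difference was -0.38 ± 0.14 (SE, n = 3 per group; limma adjusted p = 0.164), or 1.30-fold lower, with a 95% interval from -0.71 to -0.05. Its unadjusted limma p was 0.0283. Of all genes tested, 37.6% differed by at least as much in either direction. Between the arrays left out in turn, the difference kept its sign and ran from -0.45 to -0.32. The difference shrank to -0.19 with quantile normalization (adjusted p = 0.445), and to -0.21 both with normexp plus quantile normalization (adjusted p = 0.313) and with the deposited log2 values (adjusted p = 0.402). It passed the adjusted p with normexp background correction (-0.69, adjusted p = 0.0167) and with array weights (-0.49, adjusted p = 0.021), where 6444 and 4478 of the 18254 genes did so too.

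Gimap3, whose protein sits on the outer mitochondrial membrane, is the neighbour of Gimap5 and faces it from the opposite strand. It stood at 6.28, 6.52 and 6.44 in the controls and at 6.37, 6.23 and 6.55 in the knockouts. The groups overlapped, and the log2 difference was -0.03 ± 0.15 (SE, n = 3 per group; limma adjusted p = 0.903), with a 95% interval from -0.39 to 0.32. Set against Gimap3 on the same array, Gimap5 was 0.35 lower on the knockout arrays than on the control arrays on the log2 scale (two-sided exact permutation p = 0.2). The smallest p that 3 arrays against 3 allow is 0.1.

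Gimap1, which mature B and T cells need for their survival, lies on the other side of Gimap5. On the control arrays it was nearly constant, at 5.88, 5.89 and 5.87, and on the knockout arrays it spread over 5.96, 5.43 and 5.75. Knockout 1 was the highest and knockout 2 the lowest of all 6 arrays, so the groups overlapped. The log2 difference was -0.17 ± 0.17 (SE, n = 3 per group; limma adjusted p = 0.524). It was -0.02 without knockout 2, -0.29 without knockout 1 and -0.48 with normexp background correction.

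Gimap4, which has been linked to the pace of T cell death, was the only member with more than 1 probe. Probe 3, the brightest, represents the gene and read 6.22, 6.41 and 6.12 in the controls and 6.54, 6.45 and 6.45 in the knockouts. All knockout values were above all control values, by a narrow margin over control 2. The log2 difference was 0.23 ± 0.14 (SE, n = 3 per group; limma adjusted p = 0.319), or 1.17-fold higher. It turned to -0.12 with normexp background correction.

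Probe 1 of Gimap4 read 2.88, 2.80 and 2.69 in the controls and 3.40, 3.24 and 3.24 in the knockouts. Here the groups were well apart, and the log2 difference was 0.51 ± 0.14 (SE, n = 3 per group; limma adjusted p = 0.123 in a fit of all probes), with a 95% interval from 0.18 to 0.84. Its unadjusted limma p in that fit was 0.00835. With normexp background correction it was 0.19. Probe 2 read 3.14, 3.60 and 3.14 in the controls and 3.51, 3.22 and 3.24 in the knockouts, with overlapping groups and a log2 difference of 0.03 ± 0.19 (SE, n = 3 per group; limma adjusted p = 0.934). Probe 1 and probe 2 therefore gave differences 0.48 apart on the log2 scale, and this gap between genotypes was at the smallest p the design allows (two-sided exact permutation p = 0.1). Between probe 1 and probe 3 the gap was 0.28 (exact permutation p = 0.1), and between probe 2 and probe 3 it was -0.20 (exact permutation p = 0.2). Which transcripts of Gimap4 each probe can bind was not determined here. Over all 10 GIMAP probes fitted one by one, 0 were called at 2-fold, where 3.64% of all probes were. Of these 10, 0 passed the adjusted p, where 0.0808% did, and 3 had groups that did not overlap, where 35.2% of all probes did not.

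**Figure D2:**
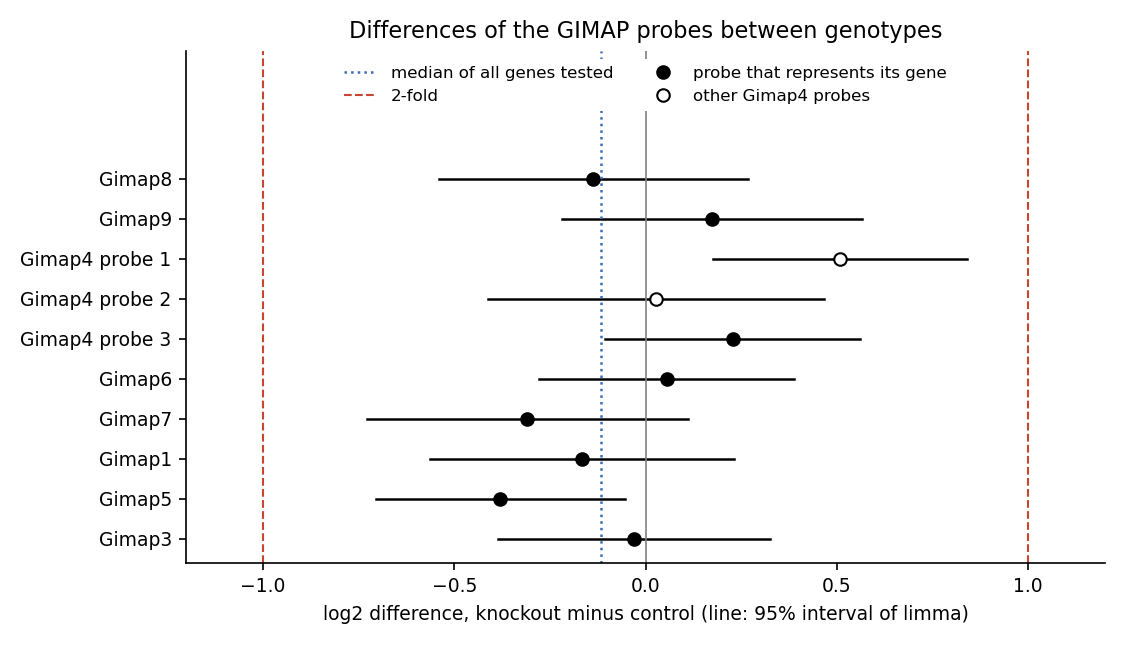
Log2 difference between genotypes of each GIMAP probe (x axis, knockout minus control), with lines for the 95% intervals of limma. Filled points are the probes that represent their genes, open points the other Gimap4 probes, the dotted line is the median of all genes at -0.12 and dashed lines mark 2-fold. All 10 intervals end before the 2-fold lines, with Gimap5 lowest at -0.38 and Gimap4 probe 1 highest at 0.51.

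Gimap6, which binds the Atg8 protein Gabarapl2 and is drawn to autophagosomes, read 6.73, 6.70 and 6.86 in the controls and 6.89, 6.67 and 6.90 in the knockouts. These values interleave, and the log2 difference was 0.05 ± 0.14 (SE, n = 3 per group; limma adjusted p = 0.811). Gimap8, whose protein is the largest of the family and carries several GTPase domains in a row, read 5.29, 4.78 and 4.91 in the controls and 4.92, 4.78 and 4.86 in the knockouts. Control 1 stood above the other 5 arrays, which lay within a narrow band. The difference of -0.14 ± 0.17 (SE, n = 3 per group; limma adjusted p = 0.604) on the log2 scale became 0.01 without control 1.

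Gimap7, whose GTPase activity depends on dimers, read 1.37, 1.50 and 1.45 in the controls and 1.16, 0.83 and 1.41 in the knockouts. Knockout 3 lay within the range of the controls and the other knockout arrays below it. The log2 difference was -0.31 ± 0.18 (SE, n = 3 per group; limma adjusted p = 0.29) in full and -0.16 without knockout 2. Gimap9 read 1.35, 1.32 and 1.38 in the controls and 1.80, 1.29 and 1.49 in the knockouts. Knockout 2 was again the lowest array, and the log2 difference was 0.17 ± 0.17 (SE, n = 3 per group; limma adjusted p = 0.497). Without knockout 1 it was 0.038, and without knockout 2 it was 0.29.

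Knockout 2, the dimmest array, gave the lowest value of all 6 arrays for 6 of the 8 members. Its median difference from the control means over the members was -0.20, beside 0.02 for knockout 1 and 0.05 for knockout 3. Without it, the median difference of the family was 0.01, and 4 of 8 members had groups that did not overlap, where this held for 43.4% of all genes. The part of array brightness in this was not tested. The mean of the 8 members was 4.63, 4.62 and 4.62 in the controls and 4.63, 4.42 and 4.62 in the knockouts, so only knockout 2 departed from a common value. Among 9104 named genes detected on all arrays, the 5 whose levels followed this mean most closely over the 6 arrays were Nin (Pearson r = 0.998), Gcc1 and Kbtbd7 (both r = 0.995), Ctns (r = 0.993) and Glce (r = 0.992). These r are a description over 6 points that share their scaling, and the profile has a range of 0.21, set by knockout 2.

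Gimap5 and Gimap4, the members with the lowest and the highest difference, were also set against the rest of the family as a description. Measured against the mean of the other 7 members on the same array, Gimap4 was 0.34 higher in the knockouts than in the controls on the log2 scale (1.27-fold, two-sided exact permutation p = 0.1). Gimap5 was 0.35 lower against its own 7 companions with overlapping groups (exact permutation p = 0.2), and 0.61 lower against Gimap4, or 1.52-fold (exact permutation p = 0.1). These pairings were picked as the extremes after the values were seen, and 0.1 is the smallest p possible here.

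Beside the cluster, a pair of genes was called lower at the 2-fold threshold. Within 500 kb on either side, 29 other genes had probes and 12 could be tested, of which 2 were called at least 2-fold lower, where 1.27% of all genes were, and none was called higher, where 2.26% were. Both lie just beyond Gimap3. They are Tmem176b and Tmem176a, a neighbouring pair of genes for membrane proteins known from dendritic cells and other myeloid cells. Tmem176b read 3.36, 3.47 and 3.55 in the controls and 1.90, 2.07 and 2.78 in the knockouts, and Tmem176a 0.00, 0.57 and 0.32 in the controls and -1.06, -0.80 and -0.72 in the knockouts. For both genes the groups were clearly apart. The log2 differences were -1.21 ± 0.24 (SE, n = 3 per group; limma adjusted p = 0.0958) for Tmem176b and -1.16 ± 0.19 (SE, n = 3 per group; limma adjusted p = 0.0809) for Tmem176a. Neither was called with normexp background correction and quantile normalization, at -0.96 and -0.80, and Tmem176a was not called with normexp alone, at -0.71. The adjusted p of Tmem176b and of Tmem176a was under 0.05 with normexp alone (0.00056 and 0.0170), with trended and robust eBayes (0.0217 and 0.0225) and with array weights (0.0131 and 0.0108). That of Tmem176b was also under 0.05 without knockout 3 (limma adjusted p = 0.0381).

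On the other flank, AI854703, a transcript known here only by its clone name, had a log2 difference of -0.98 ± 0.16 (SE, n = 3 per group; limma adjusted p = 0.0771), just short of 2-fold, with groups that did not overlap. It was called with quantile normalization (-1.02), with the deposited log2 values (-1.02), with array weights (-1.01), without control 1 (-1.06) and without knockout 3 (-1.07). Its limma adjusted p was under 0.05 with normexp alone (0.0256), with trended and robust eBayes (0.0283) and with array weights (0.0108). Within the cluster, 1 transcript named ENSMUST00000155906, on the minus strand between Gimap7 and Gimap1, differed by 0.27. AK034606 differed by 0.72 (adjusted p = 0.203), carried by knockout 2 at 0.28 where the other arrays lay between -1.26 and -0.67. The other 7 neighbours ran from -0.40 for Tra2a and -0.39 for Zfp467, through -0.30 for 2410003K15Rik, -0.14 for Lrrc61, -0.09 for Repin1 and -0.06 for B230214O09Rik, to 0.08 for Krba1, and none of these was called. The mean of Tmem176a and Tmem176b, set against the mean of the 8 GIMAP members on the same array, was 1.11 lower in the knockout on the log2 scale (two-sided exact permutation p = 0.1, the smallest possible), a comparison that was picked after the values were seen. Macrophage markers were read beside this pair, and 2 of 12 tested genes were called lower, Lyz2 at -1.08 and Mrc1 at -1.08, with 11 of 12 below 0. Over all genes, 1.27% were called lower and 60.2% were below 0. As single arrays were left out, 0 (without knockout 1) to 3 (without knockout 2 or control 3) were called, 6 to 11 of 12 were below 0 and the median ran from -0.65 to -0.01. With scaling on the median of detected probes and with normexp plus quantile normalization, 0 were called. The summed level of the macrophage list, on a linear scale, was 39.9 to 92.1 on the control arrays and 34.0 to 75.3 on the knockout arrays. The part of macrophage RNA in this was not tested.

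**Figure D3:**
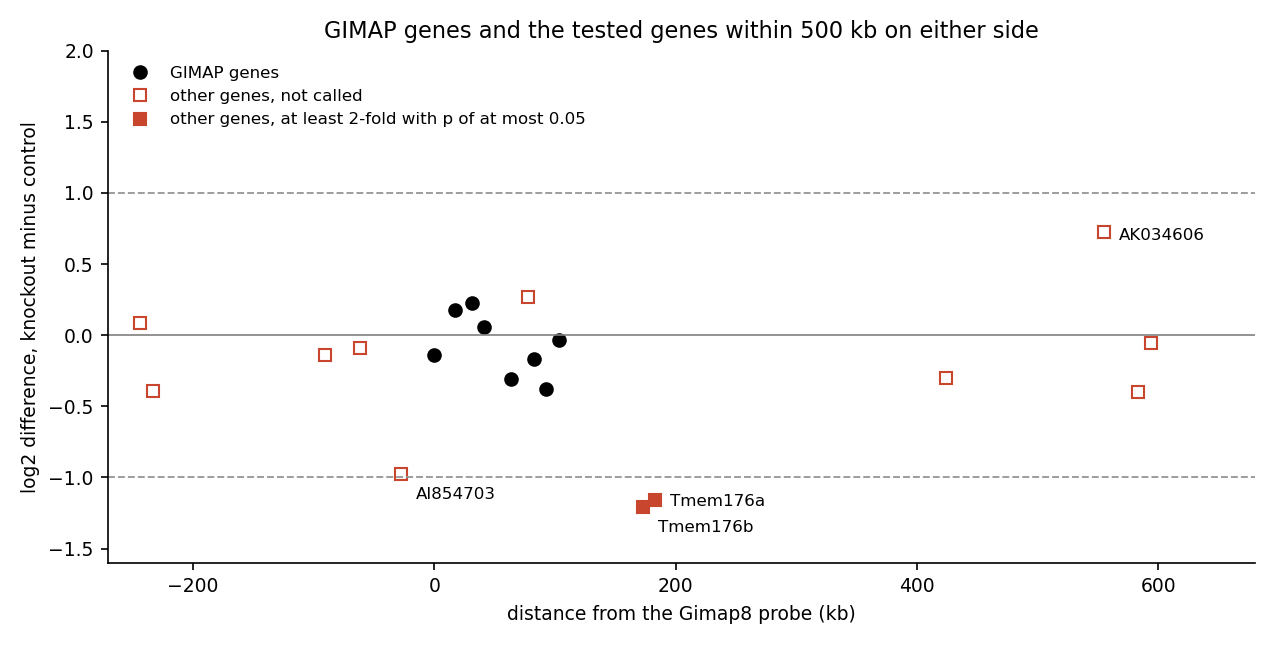
Log2 difference between genotypes (y axis, knockout minus control) of the 8 GIMAP genes and the 12 other tested genes within 500 kb, by distance from the Gimap8 probe in kb (x axis). Black points are GIMAP genes, squares are other genes, filled where called, and dashed lines mark 2-fold. The GIMAP genes lie between -0.38 and 0.23, and the filled squares to their right are Tmem176b at -1.21 and Tmem176a at -1.16.

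The promoters of the members were searched for TTCNNNGAA, the core of the site bound by STAT5, a transcription factor that acts downstream of the IL-2 receptor. The sequence reads alike on both strands, so 1 search covers both. Among 32851 promoters of 300 bases in RefSeq (GRCm38.p6, 250 bases before to 50 bases after a start site), 8.3% held it. All 8 members matched, with 9 start sites, of which 4 held the motif, in Gimap3, Gimap6, Gimap7 and Gimap8. They are shown with up to 10 bases on each side and the motif in capitals, 5′ to 3′ along the gene.
Gimap8, chr6:48647304-48647332, plus strand: aacctctttcTTCCTAGAAacatttggaa
Gimap6, chr6:48708460-48708488, minus strand: ttagaccttgTTCTAAGAAaagagattta
Gimap7, chr6:48718651-48718670, plus strand: tgcagtcagaTTCTTTGAAg
Gimap3, chr6:48770838-48770866, minus strand: agcaccccttTTCAGAGAAactcatgtac
Neither Gimap5 nor Gimap4 had these letters in its window. The 4 members with the motif had log2 differences of -0.14, 0.05, -0.31 and -0.03 in the order shown, and their groups overlapped. A match in letters is not a bound site, and no binding was measured.

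Genes of the processes in which GIMAP proteins take part were read from the same fit. Of 16 genes for BCL2 family proteins, 13 were tested, 0 were called in either direction, and 10 of 13 were below 0, where 60.2% of all genes were. The median log2 difference of this list was -0.24, and it ran from -0.44 with normexp background correction to -0.07 with normexp plus quantile normalization. With normexp alone 4 genes of the list passed the adjusted p, and with array weights 5, where 6444 and 4478 of the 18254 genes did. In 6 of the 13 tested genes of the list all knockout arrays lay below all control arrays, where this held for 21.6% of all genes. With quantile normalization it held for 4 of the 13. In either direction, the groups did not overlap for 30.4% of all genes with quantile normalization, against 36.3% with the scaling used here. The largest differences were those of Bmf at -0.77 (limma adjusted p = 0.131), Bak1 at -0.49 (adjusted p = 0.122), Bcl2l2 at -0.46 (adjusted p = 0.286) and Bax at -0.44 (adjusted p = 0.14). Bak1 and Bax form the pores that open mitochondria during cell death, Bmf promotes it and Bcl2l2 restrains it. Bak1 read 4.05, 3.94 and 4.06 in the controls and 3.51, 3.48 and 3.60 in the knockouts, and Bax 4.15, 4.26 and 4.44 against 3.82, 3.86 and 3.86. In both genes every knockout array was lower, by less than 2-fold.

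The 14 autophagy genes of the Atg8 system were all tested, with 0 called in either direction and all 14 below 0 under the scaling used here. With quantile normalization 12 of 14 were below 0. Their median log2 difference was -0.26. It was -0.18 with quantile normalization, -0.14 with normexp plus quantile normalization and -0.43 with normexp alone. With normexp alone 6 of 14 passed the adjusted p, as did 6444 of all genes. With array weights 3 of 14 passed it and with trended and robust eBayes 2, where 4478 and 754 of all genes did. In 5 of 14 the knockout arrays lay below the control arrays without overlap, where 21.6% of all genes did so. That count was 3 of 14 with quantile normalization and 8 of 14 with normexp alone. In these settings the groups did not overlap, in either direction, for 30.4% and 56.3% of all genes. Atg3, the enzyme that couples Atg8 proteins to lipid, had the largest difference at -0.70 (limma adjusted p = 0.105), followed by the Atg8 protein Gabarap at -0.51 (adjusted p = 0.129), and by Atg12 at -0.49 (adjusted p = 0.197) and Atg5 at -0.44 (adjusted p = 0.158), which are joined to each other in the same conjugation system. Atg3 read 1.86, 1.95 and 2.07 in the controls and 1.38, 1.02 and 1.38 in the knockouts. These values do not overlap, and 36.3% of all genes share that property. The partner of Gimap6, Gabarapl2, had a log2 difference of -0.43 (adjusted p = 0.213) with overlapping groups. It is named here for that link.

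Of 11 genes of lymphocyte quiescence and recirculation, 10 were tested and 0 were called, with a median of -0.01. With normexp alone the median was -0.32, with 9 of 10 below 0 and 1 past the adjusted p. Ccr7, the chemokine receptor that guides cells into lymph nodes, had the largest difference at 0.65 (limma adjusted p = 0.13), with 5.04, 4.57 and 4.86 in the controls and 5.39, 5.28 and 5.76 in the knockouts. The knockout arrays were all higher, as in 14.7% of all genes. The others named by size were Btg2 at -0.22, Btg1 at -0.19 and Klf2 at -0.19. A second family of immune GTPases, the interferon-inducible Gbp, Irg and Mx genes, was read for comparison. Of 16 listed, 14 were tested and 1 was called higher, where 2.26% of all genes were. This was Tgtp2 at 2.41 (limma adjusted p = 0.0328), with 1.92, 1.59 and 1.43 in the controls and 4.46, 3.97 and 3.73 in the knockouts. Its groups lay far apart, although its adjusted p ran from 0.0377 to 0.203 as single arrays were left out. It was 0.0584 with the replicate block, 0.132 with the methods' t-test and 0.0652 with no filter on dim probes. The gene has a near-identical copy, Tgtp1, which the probe may also read. The median of this list was 0.21, and 11 of its 14 genes were above 0, where 39.8% of all genes were. With normexp background correction 6 of 14 were above 0 and the median was -0.02. Without knockout 1, 8 of 14 were above 0 and the median was 0.11.

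GIMAP genes are also expressed by T cells and NK cells, so markers of other cells were read beside them. The sort took B cells that lacked the T cell protein CD3. Markers of B cells and of B1a cells were well above background on all 6 arrays for all 11 genes on the array, with 0 called and a median log2 difference of 0.12. This median was -0.035 with quantile normalization, -0.048 with normexp plus quantile normalization, -0.047 with the deposited log2 values and -0.19 with normexp alone. Of 17 T cell markers, 11 were tested and 3 were called higher, against 2.26% of all genes. The count was 0 with normexp plus quantile normalization, and 1 with the methods' t-test or with array weights. The 3 were Thy1 at 2.13 (limma adjusted p = 0.135), Cd3d at 1.41 (adjusted p = 0.188) and Zap70 at 1.23 (adjusted p = 0.123). The median of the 11 was 0.60, and 9 of 11 were above 0, where 39.8% of all genes were. As single arrays were left out that median ran from 0.38 to 0.73, and with normexp plus quantile normalization it was 0.35. The level of all 17, summed on a linear scale, was 269 to 284 on the control arrays and 224 to 306 on the knockout arrays, most of it from Cd2, which B cells express too. Of the 17, 10 were well above background on all 6 arrays, among them Cd3e, Cd3g, Cd4, Lck and Tcf7. Bcl11b and Trat1 were so on none, and Cd8a and Cd8b1 only on knockout 3. Cd3e read 0.50, 0.26 and 0.51 in the controls and 0.75, 1.16 and 1.15 in the knockouts, a log2 difference of 0.60 with all knockouts above all controls, and the other tested markers, none of them called, differed by 1.19 for Lat, 0.71 for Cd28, 0.48 for Lck, 0.33 for Cd4, 0.04 for Tcf7, -0.15 for Cd2 and -0.28 for Cd3g. Thy1 read -2.14, -3.29 and -3.75 in the controls and -1.57, -1.73 and 0.51 in the knockouts, so knockout 3 was the highest by far, while Cd3e, Cd4 and Zap70 were highest on knockout 2. Without knockout 3 the GIMAP differences stood at -0.38 for Gimap5, 0.24 for Gimap4 and -0.45 for Gimap7, and 0 members were called. The part of T cell RNA in the GIMAP values was not tested.

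Of 10 NK cell markers 3 were tested and 1 was called higher, Nkg7 at 1.00 (limma adjusted p = 0.12), where 2.26% of all genes were. Gzma differed by 1.44 (adjusted p = 0.233) and was not called, while Ncr1, Klrb1c, Klrk1, Klrd1 and Klre1 were not well above background on any array. Nkg7 was not called without knockout 2, without knockout 3 or in either setting with normexp background correction. Prf1, the other tested marker, differed by 0.15 and was not called. The summed level of the 10, most of it from Nkg7, was 2.40 to 2.54 on the control arrays and 3.07 to 5.51 on the knockout arrays. Endothelial cells express GIMAP genes as well, and of 8 endothelial markers 4 were tested and 0 called. Their median log2 difference was -0.22, with Egfl7 at -0.77, Vwf at -0.27, Pecam1 at -0.18 and Kdr alone above 0, while with normexp alone the median was 0.13 and 3 of 4 were above 0, and without control 3 it was 0.0085. Not well above background on any array were Cdh5, Tek, Tie1 and Emcn. Kdr, a receptor for VEGF and detected in all 6 samples, read 3.17, 2.95 and 3.14 in the controls and 3.58, 4.42 and 3.58 in the knockouts, all knockouts being higher (log2 difference 0.77, limma adjusted p = 0.14). The summed level of the endothelial list, most of it from Kdr, was 10.05 to 11.7 on the control arrays and 13.8 to 23.3 on the knockout arrays. Of 6 B2 cell markers 5 were tested and 0 called, with a median of 0.24, and their sum was 202 to 228 and 197 to 258. The median of this list was -0.005 without control 2, 0.02 without knockout 1 and 0.55 with array weights. The part of these cells in the GIMAP values was not tested.

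**Figure D4:**
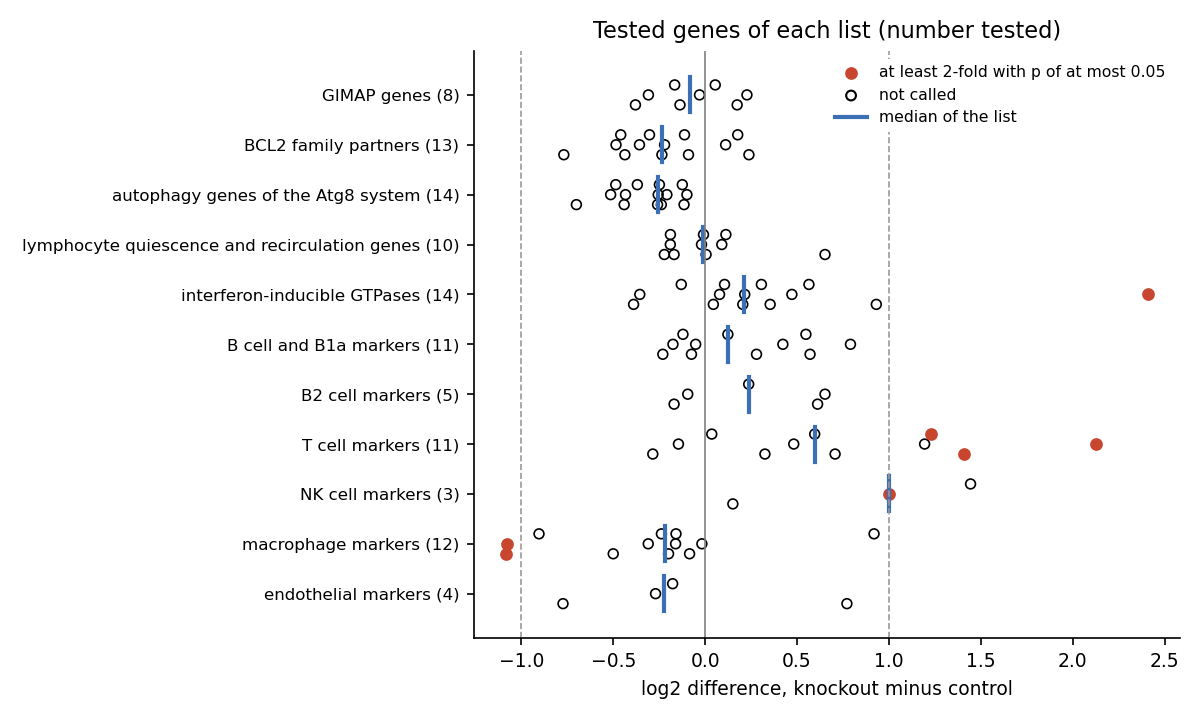
Log2 difference between genotypes (x axis, knockout minus control) of every tested gene of each list (rows, with the number of genes tested). Filled red points were called at 2-fold, open points were not, the blue bar is the median of the list and dashed lines mark 2-fold. The GIMAP genes stay between -0.38 and 0.23 with no called gene, while Tgtp2 at 2.41 and the T cell markers Thy1, Cd3d and Zap70 lie beyond the 2-fold line.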

How the data were processed

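Total RNA of sorted PC B1a cells was labelled with Cy3 and hybridized to Agilent mouse arrays, 3 per genotype. The authors deposited spot intensities from Feature Extraction 10.7.1.1 with the local background removed and no scaling from array to array. They also deposited log2 values for each probe, used here as an alternative. Here log2 of the processed signal minus the array's 75th percentile, over 59305 non-control spots, was taken. Outlier spots were dropped and replicate spots averaged. Tests were run on the 24753 probes that rose well above background in all 3 samples of either genotype and had values in 2 or more samples of each. Of several such probes of a gene, the brightest on average was used. Genotypes were compared with limma 3.58.1 in R 4.3.3 without covariates, over all genes or probes, with Benjamini-Hochberg adjustment. The number of arrays limits the precision. The limma step alone was tested on simulated data.

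Named are all members and all tested neighbours within 500 kb, at most 4 genes of a list (those called, or the largest differences where none was), the 5 genes most like the family mean, Il2ra and Il12b. Other markers of T, NK and endothelial cells, and Gabarapl2, were named outside this rule after their values were seen. The members and lists were chosen with earlier results of these data known. Alternatives changed background correction, normalization, filter, probe choice, test, weights, replicate block and single arrays.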

Additional observations from a re-analysis of the deposited data

How the results depend on the processing

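Over 19 alternatives, the count of GIMAP genes changed 2-fold and that of GIMAP probes changed 2-fold stayed at 0. With normexp in place of the processed signal and no quantile step, 1 gene (Gimap5) and 1 probe passed the adjusted p, 4 members had groups that did not overlap, as for 56.3% of all genes, and the median difference was -0.39, while 6444 genes in all passed. With array weights 1 gene passed, also Gimap5. Leaving out 1 array at a time gave 2 to 4 members without overlap, with 4 when knockout 2 was left out, where 40.6% to 52.5% of all genes had none. Of the lists, 2 interferon-inducible GTPases were called with scaling on the median of detected probes, and 1 to 2 as single arrays were left out. With array weights 1 endothelial marker was called lower. Without knockout 3, 1 of the B cell and B1a markers was called higher, and without control 1, 4 T cell markers were. Beside the cluster, 1 gene was called with normexp alone and 0 with normexp plus quantile normalization, while 3 were called with quantile normalization, the deposited log2 values, array weights, without control 1 and without knockout 3.

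The small differences changed sign as follows. The median of the GIMAP genes was 0.029 with quantile normalization, 0.026 with normexp plus quantile normalization, 0.0080 with scaling on the median of detected probes, 0.014 with the deposited log2 values and 0.010 without knockout 2. With normexp alone, Gimap4 was -0.12, Gimap6 -0.26 and Gimap4 probe 2 -0.27. Quantile normalization gave 0.0099 for Gimap3 and 0.060 for Gimap8, normexp with quantile normalization 0.016 and 0.035, and the deposited log2 values 0.036 for Gimap8. Gimap3 was 0.061 with scaling on the median of detected probes, and Gimap1 0.019 with array weights. As single arrays were left out, Gimap3 ran from -0.11 to 0.046, Gimap8 from -0.24 to 0.011 and Gimap4 probe 2 from -0.067 to 0.18. Gimap5, Gimap7, Gimap9 and Gimap4 probe 1 kept their direction in all 19, Gimap9 between 0.0043 with normexp alone and 0.36 with array weights. The cause of these shifts was not tested.

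Samples that share a number deviated together with correlations of 0.19, 0.06 and 0.09. Those of unlike number ran from -0.19 (knockout 1, control 3) to 0.07 (knockout 2, control 3), only this last being above 0. The labels state no animal shared between samples of a number, so the numbers were not taken as pairs in the main fit. With the replicate block, 0 members were called, the median stayed at -0.08 and Gimap5 had an adjusted p of 0.164, Tgtp2 no longer passed the adjusted p (0.0584), and 649 genes in all were called, against 644 without it. An unadjusted limma p under 0.05 was reached by 5196 genes with the block, against 4587 without it.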
